A study of Mus musculus with 6 samples.

Results

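The zinc finger genes with symbols from Zfp900 to Zfp999 are a block of numbered mouse genes, and 63 of the 29199 genes in the deposited table carry such a symbol. They were chosen by symbol alone (the letters Zfp followed by a number from that range and nothing more). Their RNA was measured by total RNA sequencing in regulatory T cells (Treg) recovered from mouse spleen. The recipients were lethally irradiated B6 mice that had received B6 and B6D2F1 bone marrow. All recipients had also received wild-type Treg of B6 Foxp3-Thy1.1 mice, which had been expanded in culture with IL-2, TGFb 1 and beads coated with anti-CD3 and anti-CD28. The groups differed in the naive conventional CD4 T cells (Tconv) given with them. In 3 libraries (Treg with WT Tconv) the Tconv were wild type, and in 3 libraries (Treg with HP1a KO Tconv) they lacked HP1α, a heterochromatin protein encoded by Cbx5. The HP1α-deficient mice came from a floxed allele excised with a CMV-cre transgene, so the Tconv of these mice lacked the protein throughout their development, while the sequenced Treg carried the wild-type gene. The comparison asks whether RNA levels in Treg depended on the genotype of the Tconv that shared the host. The labels do not say that libraries of a group came from separate animals, so p-values measure the spread between these samples.

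Most zinc finger genes of this kind encode proteins with a Krüppel-associated box (KRAB) near the amino end and a row of zinc fingers behind it. The fingers bind DNA, and the KRAB box recruits the co-repressor TRIM28 (encoded by Trim28), which brings the histone methyltransferase SETDB1 and HP1 proteins to the bound site. Such proteins are best known for silencing endogenous retroviruses and other repeats, and their genes arose by repeated duplication, so that many lie in clusters of near copies.

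All 63 members were found by identifier in the GENCODE annotation of GRCm39. Of these, 62 had a coding sequence and Zfp939 was annotated as a transcribed pseudogene. A KRAB box was found in 56 of the 62 coding members by a pattern of conserved residues, and in 58 by a looser pattern. The sequences below show the box because it is what the members share, as the coding strand of GRCm39, 5′ to 3′, with the codons of the residues used by the pattern in capitals. Zfp984 had the highest level of the block, Zfp961, Zfp950 and Zfp958 had the smallest unadjusted p-values among members with higher values in Treg with HP1a KO Tconv, and Zfp953 and Zfp972 matched the looser pattern only. The boxes lie at chr4:147842190-147842252 (minus strand) for Zfp984, chr8:72719671-72719733 (plus) for Zfp961, chr19:61115907-61115969 (minus) for Zfp950, chr8:4675873-4675935 (plus) for Zfp958, chr13:67495938-67496000 (minus) for Zfp953 and chr2:177563513-177563575 (minus) for Zfp972, and all 6 are exonic.
Zfp984: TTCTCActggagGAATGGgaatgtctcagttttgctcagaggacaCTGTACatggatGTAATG
Zfp961: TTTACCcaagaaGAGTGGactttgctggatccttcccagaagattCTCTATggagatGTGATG
Zfp950: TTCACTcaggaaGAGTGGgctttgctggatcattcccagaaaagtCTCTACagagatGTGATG
Zfp958: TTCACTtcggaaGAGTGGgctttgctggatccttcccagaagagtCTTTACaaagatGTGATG
Zfp953: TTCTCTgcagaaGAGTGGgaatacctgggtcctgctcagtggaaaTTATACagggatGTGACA
Zfp972: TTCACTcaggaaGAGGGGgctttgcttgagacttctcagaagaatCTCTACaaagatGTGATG

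The zinc fingers were counted from the spacing of their cysteines and histidines, and 58 coding members held 3 to 21 of them, with a median of 11. The stretch below codes for the first finger of Zfp984 (chr4:147840070-147840132, minus strand, coding exon) and is shown as an example of the unit that these members repeat. The codons of the cysteines and histidines that hold the zinc are in capitals.
Zfp984 first finger: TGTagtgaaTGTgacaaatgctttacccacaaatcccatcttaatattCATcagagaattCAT
The members lay on 11 chromosomes and fell into 25 groups when those closer than 500 kb were joined. The largest groups held 16 members on chromosome 4 (145237287 to 147932882), 10 on chromosome 17 (21787117 to 23086292) and 6 on chromosome 2 (175214229 to 176410878), whereas 18 members had no other member within that distance.

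Coding sequences were compared in pairs within the chromosome 2 group of 6 members, and not within the other groups. The annotated coding sequences of Zfp966, Zfp967, Zfp968 and Zfp969 had the same 1455 bases with 0 differences, and those of Zfp965 and Zfp973 had the same 954 bases with 0 differences. Between the 2 types, 12 of the first 954 coding bases differed (98.7% identity). The lines below show the 75 bases of coding sequence (from coding base 390) that hold more of these differences than any other stretch of that length, with the 4 differing positions in capitals, because they show how little tells the coding parts of these transcripts apart. The stretch lies at chr2:175321479-175321553 (plus strand) for Zfp965, chr2:176372016-176372090 (plus) for Zfp973, chr2:175713146-175713220 (minus) for Zfp966, chr2:176222470-176222544 (plus) for Zfp967, chr2:175223928-175224002 (plus) for Zfp968 and chr2:175485744-175485818 (minus) for Zfp969.
Zfp965: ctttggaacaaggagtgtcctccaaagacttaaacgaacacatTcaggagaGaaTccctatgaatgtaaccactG
Zfp973: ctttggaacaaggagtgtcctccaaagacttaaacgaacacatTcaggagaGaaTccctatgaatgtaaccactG
Zfp966: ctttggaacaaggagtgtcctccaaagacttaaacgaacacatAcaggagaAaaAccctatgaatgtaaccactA
Zfp967: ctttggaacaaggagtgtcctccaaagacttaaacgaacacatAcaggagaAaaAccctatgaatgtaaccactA
Zfp968: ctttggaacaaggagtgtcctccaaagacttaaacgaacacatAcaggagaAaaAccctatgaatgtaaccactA
Zfp969: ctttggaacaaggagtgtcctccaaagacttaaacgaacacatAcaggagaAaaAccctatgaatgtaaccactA

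Library totals ranged from 87421755 to 119078882 counts. No 2 libraries of a group held counts alike enough to be the same library (chi-square per gene of 21.3 or more), so each was counted as 1 replicate. By the same measure over all genes 1 library in each group stood apart. Replicate 3 of Treg with WT Tconv was at 114 and 121 from the others of its group, which were at 21.3 from each other, and replicate 2 of Treg with HP1a KO Tconv was at 140 and 174, against 29 between the others. By this measure over the members alone these libraries did not stand apart. It was 18.8 to 24.9 between libraries with WT Tconv and, with HP1a KO Tconv, highest (31.4) between replicates 1 and 3. The measure takes in near-identical copies such as Zfp968, with 1076 and 60 counts in those libraries. By level, replicate 3 with WT Tconv was the lowest library for 23 of the 48 members averaging 100 counts or more. Replicate 2 with HP1a KO Tconv was the highest for 20 of them. The Treg genes Foxp3 (157.9 to 254.2 counts per 1e6 of the library total) and Il2ra (123.9 to 200.7) were expressed in all 6 libraries. Both were lowest in replicate 2 with HP1a KO Tconv, as were Cd4 (706.9 against 716.3 to 851.3) and Cd3e (150.6 against 184.9 to 220.9). Tnfrsf18 was highest there. The sum of 7 Treg genes (4653) lay within the range of the other 5 libraries (4213 to 4992), but most of it was Ikzf2 (1873) and Ctla4 (1047). In replicate 3 with WT Tconv red cell, neutrophil and macrophage or monocyte genes were high. The summed level of 6 red cell genes was 5501 per 1e6 counts there and 370.2 to 687.7 in the other 5 libraries. That of 7 neutrophil genes was 1818 against 40.96 to 225, and that of 4 macrophage or monocyte genes was 175.7 against 12.27 to 46.56. Most of the latter sum was Lyz2 (164.9), while Cd68 was at 4.87 there and 3.94 to 4.74 in the others. The genes of these 3 lists all had counts in all 6 libraries. The Treg had been sorted by flow cytometry as CD4+ Thy1.1+ cells, a gate that red cells, neutrophils and macrophages should not pass. In bulk RNA of this kind, fewer cells of a type and less RNA per cell cannot be told apart.

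The block was expressed at low to moderate levels. Levels are given as CPM, the counts per 1e6 of a library total scaled by the TMM method, unless another scale is named. The mean over the 6 libraries was at least 10 CPM for 27 members, from 1 to under 10 CPM for 21 and under 1 CPM for 15. The 27 members at 10 CPM or more held 85.7% of the counts of the block, and the 6 highest held 34.0%. A mean of 100 counts or more was reached by 48 members, and 56 had at least 1 count in every library.

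Zfp984 (ENSMUSG00000078495, chromosome 4, 147838429 to 147894327, minus strand, 11 fingers) was the highest member. Its level was 62.0, 60.5 and 54.8 CPM in Treg with WT Tconv and 53.8, 62.1 and 58.2 CPM in Treg with HP1a KO Tconv. The groups overlapped, with a log2 fold change of -0.03 (SE 0.0812, adjusted p = 0.904 by the edgeR quasi-likelihood test), and 14.0% of its exon bases are shared with Gm20707 on the same strand. Zfp945 (ENSMUSG00000059142, chromosome 17, 23064557 to 23086292, minus strand, 18 fingers) followed at 44.5, 49.1 and 37.5 CPM with WT Tconv and 45.8, 41.8 and 45.2 CPM with HP1a KO Tconv. Its lowest library was replicate 3 with WT Tconv, and the groups overlapped. Zfp942 (ENSMUSG00000071267, chromosome 17, 22145941 to 22181482) was at 41.1, 43.7 and 39.1 CPM against 38.5, 40.9 and 40.9 CPM. It varied least of the 48 members with a mean of 100 counts or more, with a coefficient of variation over the 6 libraries of 4.48%.

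Zfp954 (ENSMUSG00000062116, chromosome 7, 7115123 to 7124498, 8 fingers) was at 35.2, 36.1 and 33.7 CPM with WT Tconv and 31.0, 37.9 and 31.7 CPM with HP1a KO Tconv. Replicate 2 of the latter group lay above all libraries of the former and the other 2 lay below. Zfp959 (ENSMUSG00000003198, chromosome 17, 56199060 to 56205936, 9 fingers) was at 29.4, 28.9 and 29.4 CPM against 29.8, 26.5 and 26.8 CPM, also with overlap. Zfp949 (ENSMUSG00000032425, chromosome 9, 88430073 to 88453709, 11 fingers) was at 26.8, 24.2 and 25.2 CPM against 27.4, 27.2 and 27.4 CPM, so that its groups did not overlap. The difference was 0.11 on the log2 scale (SE 0.0719) with an adjusted p of 0.539 by edgeR.

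Per length of the canonical transcript, Zfp984 was again highest at 20.8 CPM per kb, followed by Zfp959 at 13.7 and Zfp942 at 12.3. Zfp993 stood close behind at 12.2 CPM per kb, but its annotated transcript is short and lies wholly within near-identical sequence of Zfp991 and Zfp992. With the length of all annotated exons in place of the canonical transcript, the highest members were Zfp984, Zfp959 and Zfp958.

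**Figure D1:**
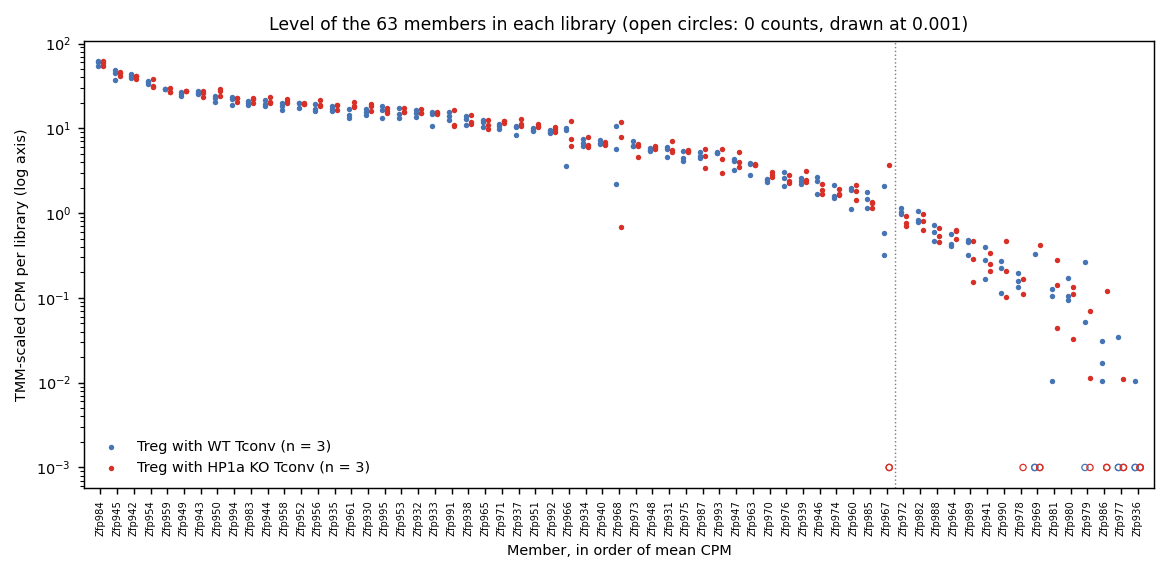
TMM-scaled CPM of each of the 63 members (horizontal axis, in order of mean level) in each library on a log axis, with blue points for Treg with WT Tconv and red points for Treg with HP1a KO Tconv. Levels fall from 58.6 CPM for Zfp984 to members without counts in some libraries (open circles, drawn at 0.001), the dotted line follows the last of the 48 members averaging 100 counts or more, and Zfp966, Zfp968 and Zfp967 stand out by their wide spread.

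Levels differed between the genomic groups. The 10 members of the chromosome 17 group ranged from 2.08 CPM (Zfp946) to 44.0 CPM (Zfp945), with a median of 20.6 CPM, and held 29.5% of the counts of the block. The 16 members of the chromosome 4 group ranged from 0.0298 CPM (Zfp986) to 58.6 CPM (Zfp984), with a median of 0.713 CPM, and held 16.0%. Thus the chromosome 4 group held the highest member of the block and most of the members under 1 CPM. The 4 members of a chromosome 7 group (42226953 to 42844955) ranged from 0.00173 CPM (Zfp936) to 5.02 CPM (Zfp975). The 18 members with no other member nearby had a median of 15.5 CPM.

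A total of 5 members were too low to pass the filter of the main edgeR test. In DESeq2, which fitted all 63 members, their unadjusted p-values were 0.248 (Zfp979) or more. Zfp936 had 1 count in 1 of the 6 libraries, and Zfp977 had 4 counts in replicate 3 with WT Tconv and 1 count in replicate 1 with HP1a KO Tconv. Zfp986 had 3, 1 and 2 counts with WT Tconv and 0, 12 and 0 with HP1a KO Tconv, and Zfp979 had 5, 0 and 31 against 0, 7 and 1. Zfp969 had 32, 0 and 0 against 0, 0 and 37 counts. No comparison of these genes could be read at this depth, where a library with 0 counts allows up to 3 counts, for counting error only.

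The 6 near-identical members of chromosome 2 were counted unevenly from library to library. Zfp968 (ENSMUSG00000078898, chromosome 2, 175214229 to 175230029) was at 2.19, 10.6 and 5.67 CPM with WT Tconv and 11.8, 7.95 and 0.680 CPM with HP1a KO Tconv. Its highest and lowest libraries thus belonged to the same group. Zfp967 (ENSMUSG00000095199, chromosome 2, 176212793 to 176225578) had 31, 56 and 244 counts against 0, 0 and 329 counts, so that the lowest and the highest libraries both belonged to Treg with HP1a KO Tconv. Zfp966 had 343, 915 and 1187 counts against 566, 751 and 1091. These 3 members had coefficients of variation of 69.1%, 133.5% and 37.9%.

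Summed over the 4 members with the same coding sequence (Zfp966 to Zfp969), the level was 6.41, 20.7 and 17.9 CPM with WT Tconv and 18.1, 15.5 and 17.2 CPM with HP1a KO Tconv. Replicate 1 with WT Tconv was the low library, and the other 5 lay between 15.5 and 20.7 CPM. Zfp965 and Zfp973 together were at 19.0, 19.0 and 16.4 CPM against 17.2, 17.3 and 16.0 CPM. When Gm14288 and Gm14440, which share near-identical transcript with the set and lie outside the block, were added to the 6 members, the sum was 35.7, 44.6 and 43.2 CPM against 42.7, 44.2 and 39.7 CPM. This sum had a coefficient of variation of 8.17%, compared with 13.9% for the 6 members and 10.9% to 156.4% for the single members. Since the authors' estimated counts divide reads among transcripts that match them, the values of the single members of this set are uncertain, and so are the directions given for them.

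**Figure D2:**
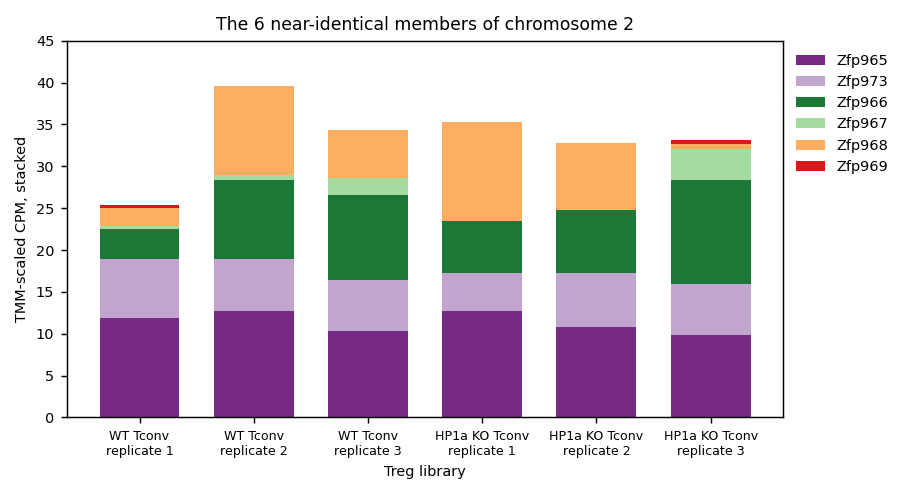
Stacked TMM-scaled CPM of the 6 near-identical members of chromosome 2 (colours) in each Treg library. The parts assigned to Zfp966, Zfp967 and Zfp968 change from library to library, while Zfp965 and Zfp973 together stay between 16.0 and 19.0 CPM.

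The same limit touched other members. At least 50% of the canonical transcript was near-identical (98% identity or more) to 1 or more other gene records for 14 members. In Zfp987 no single record reached 50% (33.3% for the closest). For Zfp939 that record is a second one of the same symbol over the same exons, and for Zfp935 it is Gm49359, which overlaps 54.1% of its exon bases on the same strand. Among members with a mean of at least 100 counts, the coefficient of variation over the 6 libraries had a median of 17.1% in the 12 such members (19.0% in the 10 other than Zfp935 and Zfp939) and 10.2% in the 36 others, in which it ranged from 4.48% (Zfp942) to 19.0% (Zfp946). Zfp991, Zfp992 and Zfp993 of chromosome 4 summed to 29.7, 26.4 and 28.6 CPM with WT Tconv and 26.1, 29.8 and 24.3 CPM with HP1a KO Tconv, which overlapped. Zfp960 of chromosome 17 was at 1.85, 1.13 and 1.97 CPM against 2.13, 1.81 and 1.43 CPM, and shares 98.3% of its transcript with near-identical sequence, chiefly of Zfp97. Zfp97 lies outside the block and carried most of the reads of that pair, which summed to 19.5, 19.2 and 16.6 CPM against 22.5, 23.3 and 24.0 CPM, without overlap.

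Between Treg with HP1a KO Tconv and Treg with WT Tconv, 0 of the 58 members tested differed at an adjusted p under 0.05. The test was the quasi-likelihood F-test of edgeR with Benjamini-Hochberg adjustment over all 18321 genes tested, of which 0 (0%) passed. At an unadjusted p under 0.05, 2 members (Zfp961 and Zfp950) were higher with HP1a KO Tconv and 0 were lower, beside 6.98% higher and 7.52% lower among all genes tested. With DESeq2, 0 members and 526 of all genes given an adjusted p (4.35%) passed. Fitted log2 fold changes of the 58 members ran from -0.81 (Zfp978) to 0.91 (Zfp981), both with fewer than 30 counts in every library. Among the 48 members with a mean of at least 100 counts, they ran from -0.24 (Zfp993) to 0.35 (Zfp961). The values at the lower ends depended on single libraries: Zfp978 was at -0.24 and Zfp993 at -0.03 without replicate 3 with HP1a KO Tconv, and at -1.50 and -0.48 without its replicate 1. None of them had an absolute log2 fold change above 1 in this fit, but the values of Zfp967 (SE 2.26) and Zfp968 (SE 1.15) were poorly determined, and that of Zfp967 ran from -9.64 to 1.45 when each library was left out.

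The median log2 fold change of the tested members was 0.07, and 35 of them (60.3%) had a fitted value above 0. Over all genes tested the median was -0.01, with 48.5% above 0. The other 290 tested genes named Zfp and a number had a median of 0.09, with 67.9% above 0, and 54 of them were higher and 17 lower at an unadjusted p under 0.05. Both directions together made 24.5% of that list, beside 3.45% of the tested members and 14.5% of all genes tested. The median of the members stayed above 0 under all alternatives run, but leaving out replicate 3 with WT Tconv gave 0.01 and leaving out replicate 2 with HP1a KO Tconv, the other library that stood apart over all genes, gave 0.02. Summed over all 63 members, per 1e6 counts of the unscaled library total, the level was 679, 687 and 616 with WT Tconv (661 ± 39.4, SD, n = 3) and 676, 742 and 695 with HP1a KO Tconv (704 ± 33.6). The groups overlapped, and the difference of 43.6 was close to the spread within a group. It was 25.5 with TMM scaling and 23.7 with RLE scaling (size factors from median ratios), and on library totals it was 20.9 without replicate 3 with WT Tconv and 24.95 without replicate 2 with HP1a KO Tconv.

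**Figure D3:**
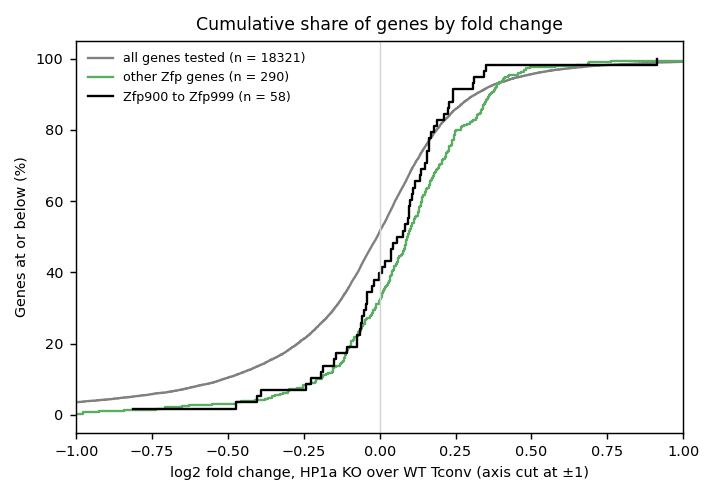
Cumulative share of genes (vertical axis, percent) at or below each fitted log2 fold change (horizontal axis, HP1a KO over WT Tconv, shown from -1 to 1) for all 18321 genes tested (grey), the 290 other Zfp genes (green) and the 58 tested members (black). The member curve lies to the right of that of all genes around 0, with medians of 0.07 and -0.01, and is narrower on the side of negative values.

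The GC content of the canonical transcript was low in the members, with a median of 39.3% compared with 49.5% over all genes tested. Among all genes, the tenth of lowest GC content deviated from the mean over libraries by a median of 0.05, 0.04 and -0.01 (log2) in the libraries with WT Tconv and by -0.04, 0.00 and -0.03 in those with HP1a KO Tconv. With an offset for GC content fitted per library, the median log2 fold change of the members was 0.12, and 4 members were higher and 0 lower at an unadjusted p under 0.05, beside 4.78% higher and 6.25% lower among all genes tested in that fit. The part of GC content in the values without the offset was not tested.

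Zfp961 (ENSMUSG00000052446, chromosome 8, 72704881 to 72767210, plus strand), a KRAB gene with 11 fingers whose box is shown above, had the smallest unadjusted p-value of the block. Its level was 14.3, 16.8 and 13.1 CPM with WT Tconv (14.7 ± 1.84, SD, n = 3) and 18.3, 17.7 and 20.3 CPM with HP1a KO Tconv (18.8 ± 1.40). All 3 libraries with HP1a KO Tconv lay above all 3 with WT Tconv. The log2 fold change was 0.35 (SE 0.114, unadjusted p = 0.0149, adjusted p = 0.244 by edgeR), and the adjusted p of DESeq2 was 0.0987. DESeq2 called it when replicate 2 of Treg with WT Tconv (adjusted p = 0.0289) or replicate 2 of Treg with HP1a KO Tconv (adjusted p = 0.0438) was left out. Over all alternatives its adjusted p ran from 0.0289 to 0.489.

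Zfp950 (ENSMUSG00000074733, chromosome 19, 61041343 to 61129278, minus strand), with 17 fingers, was at 24.2, 22.9 and 20.7 CPM with WT Tconv and 24.1, 27.2 and 28.8 CPM with HP1a KO Tconv. Replicate 1 of either group lay at about the same level, so the groups overlapped. The log2 fold change was 0.24 (SE 0.0971, adjusted p = 0.313 by edgeR). Zfp958 (ENSMUSG00000058748, chromosome 8, 4663132 to 4682329, plus strand), with 13 fingers, was at 20.0, 18.2 and 16.3 CPM against 20.0, 22.4 and 21.1 CPM. Its groups did not overlap, though the highest library with WT Tconv and the lowest with HP1a KO Tconv were both at 20.0 CPM after rounding. The log2 fold change was 0.22 (SE 0.0991) with an adjusted p of 0.352 by edgeR.

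Zfp971 (ENSMUSG00000074519, chromosome 2, 177665042 to 177700370), with 12 fingers, was at 11.1, 10.6 and 9.89 CPM against 12.1, 12.1 and 11.6 CPM, without overlap. Zfp951 (ENSMUSG00000072774, chromosome 5, 104960515 to 105008190), with 10 fingers, was at 10.1, 9.65 and 9.25 CPM against 10.8, 11.2 and 10.5 CPM, also without overlap. Both differences were small, with log2 fold changes of 0.18 (SE 0.0957) and 0.16 (SE 0.0958). Zfp937 (ENSMUSG00000060336, chromosome 2, 150059993 to 150086798), with 14 fingers, was at 10.8, 10.4 and 8.36 CPM against 10.7, 12.8 and 11.4 CPM. Zfp930 (ENSMUSG00000059897, chromosome 8, 69661686 to 69683817), with 12 fingers, was at 16.8, 15.7 and 14.3 CPM against 16.0, 19.2 and 18.2 CPM. In both genes replicate 1 with HP1a KO Tconv fell among the libraries with WT Tconv. Zfp956 (ENSMUSG00000045466, chromosome 6, 47930324 to 47942234), which has 6 fingers and no KRAB box by either pattern, was at 15.9, 19.2 and 16.9 CPM against 18.6, 21.3 and 18.2 CPM, with overlap.

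In 7 of these 8 genes, the lowest of the 6 libraries was replicate 3 with WT Tconv, the library with the high red cell and neutrophil RNA. Over the 48 members averaging 100 counts or more, that library was the lowest for 23 and replicate 2 with HP1a KO Tconv was the highest for 20. When that library was left out, the log2 fold change was 0.27 for Zfp961, 0.18 for Zfp950 and 0.15 for Zfp958, with adjusted p-values of 0.437, 0.532 and 0.585 by edgeR. The part of the red cell and neutrophil RNA in the levels of that library was not tested.

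The member with the smallest unadjusted p-value among those with lower fitted values was Zfp972 (ENSMUSG00000074529, chromosome 2, 177482811 to 177567493, minus strand). Its annotated product has 81 residues with no finger of the pattern used, and its box matched the looser pattern only. It was at 0.978, 1.15 and 1.02 CPM with WT Tconv and 0.935, 0.701 and 0.770 CPM with HP1a KO Tconv, on 68 to 120 counts per library. The groups did not overlap, with a log2 fold change of -0.39 (SE 0.222) and an adjusted p of 0.469 by edgeR, and 75.3% of its transcript is near-identical to other genes.

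Zfp973, one of the near-identical members shown above, was at 7.08, 6.25 and 6.14 CPM against 4.53, 6.45 and 6.13 CPM. Zfp993 was at 5.09, 5.08 and 5.19 CPM against 5.70, 4.32 and 2.97 CPM, so that the 3 libraries with WT Tconv were close and those with HP1a KO Tconv spread to both sides. Zfp946 was at 2.63, 2.40 and 1.68 CPM against 1.67, 1.89 and 2.17 CPM, with overlap. Zfp985, on chromosome 4, was at 1.16, 1.45 and 1.78 CPM against 1.16, 1.32 and 1.36 CPM, also with overlap. Zfp989 was at 0.323, 0.476 and 0.461 CPM against 0.154, 0.290 and 0.464 CPM, on at most 54 counts. Zfp978 had 15, 13 and 23 counts against 15, 11 and 0 counts. With Zfp959, given above, these were the 8 lower members of smallest p-value, and their adjusted p-values by edgeR were 0.469 or more.

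**Figure D4:**
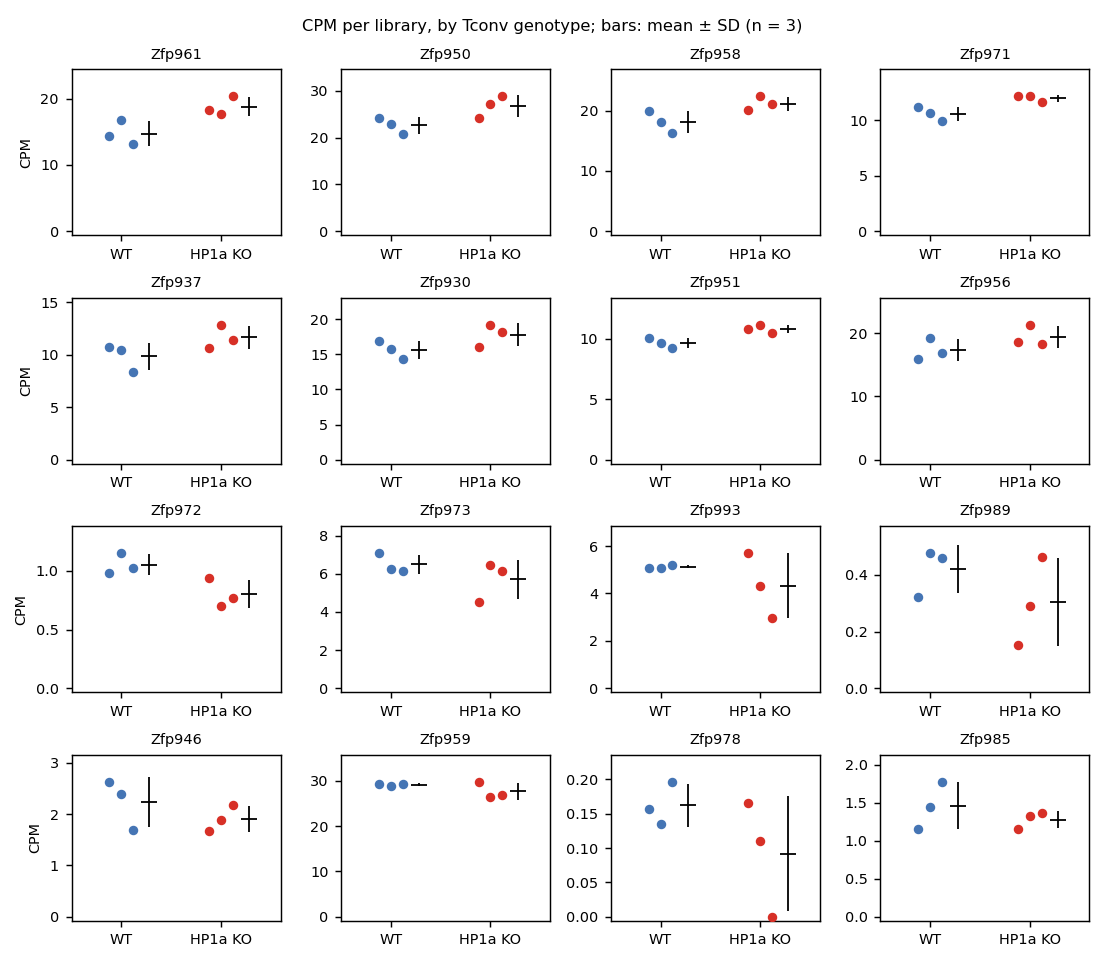
CPM per library for the 8 members of smallest unadjusted p-value with higher (upper rows) and the 8 with lower fitted values (lower rows) in Treg with HP1a KO Tconv, with blue points for WT and red points for HP1a KO Tconv and bars for the mean ± SD (n = 3). Points of both groups are apart for Zfp961, Zfp958, Zfp971, Zfp951 and Zfp972 and mixed for the other 11.

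The groups did not overlap for 7 of the 58 tested members, of which 6 were higher (Zfp949, Zfp951, Zfp958, Zfp961, Zfp970 and Zfp971) and 1 was lower (Zfp972) with HP1a KO Tconv. Among all genes tested, 11.5% did not overlap and were higher and 11.6% did not overlap and were lower. Zfp970 of chromosome 2 was at 2.53, 2.30 and 2.43 CPM against 2.65, 3.02 and 2.82 CPM. The share of members without overlap (12.1%) was below that of all genes tested (23%), whereas that of the other Zfp genes tested was above it (36.2%).

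By chromosome, beside the 48.5% of all genes tested that had fitted values above 0, all 5 members on chromosome 8 (Zfp930, Zfp958, Zfp961, Zfp963 and Zfp964) were above 0, from 0.08 to 0.35, and 1 of them was higher at an unadjusted p under 0.05 (6.98% of all genes). On chromosome 7, 2 of the 7 tested members were above 0 and 5 below. Of the members on chromosome 8, Zfp963 shares 27.7% of its exon bases with Gm20422 on the same strand. Zfp963 was at 3.92, 3.75 and 2.82 CPM with WT Tconv and 3.75, 3.65 and 3.70 CPM with HP1a KO Tconv. Its value above 0, the lowest on chromosome 8, thus rested on replicate 3 with WT Tconv. That library was the lowest for all 5 members on chromosome 8. Without it the log2 fold changes of Zfp961, Zfp958 and Zfp930 were 0.27, 0.15 and 0.13, and the tally of the chromosome was not repeated. By genomic group, 3 of the 5 tested members of the near-identical chromosome 2 group were above 0. Of the 14 tested members of the chromosome 4 group, 4 had fitted values above 0 and 10 below, with a median of -0.13 and none at an unadjusted p under 0.05. Of the 10 members of the chromosome 17 group, 7 were above 0 and 3 below, with a median of 0.04. Replicate 3 with WT Tconv was the lowest library for all 7 members of this group above 0 (Zfp944, Zfp945, Zfp947, Zfp948, Zfp983, Zfp994 and Zfp995). It was the lowest for none of the 3 below. Without it the log2 fold change of Zfp945 turned to -0.08, and the tally of the group was not repeated. Of the 4 members of the second chromosome 2 group (177156498 to 177720294), 3 were above 0 and Zfp972 was below.

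**Figure D5:**
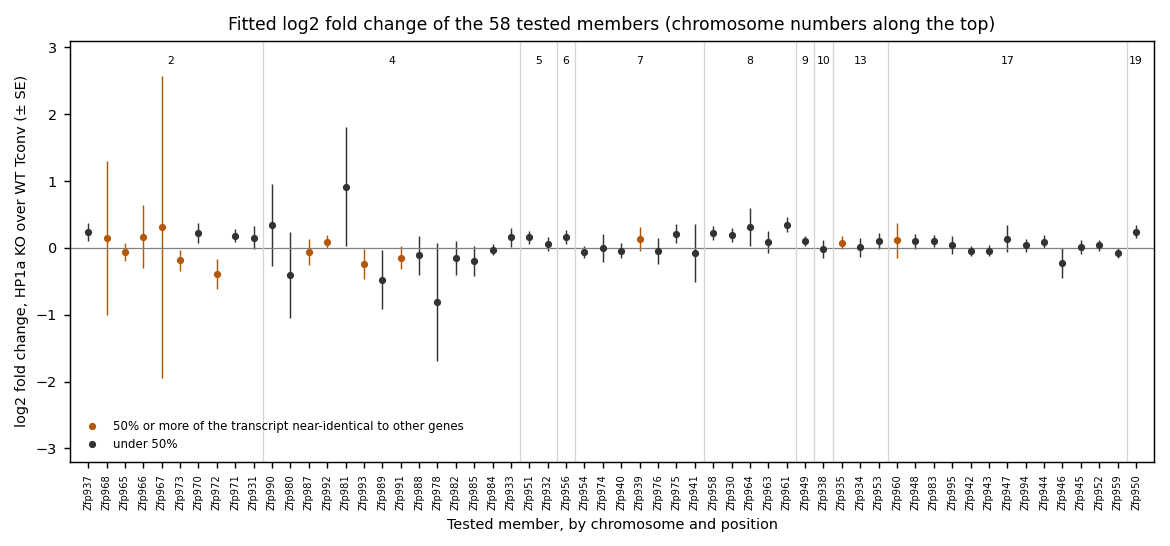
Fitted log2 fold change (HP1a KO over WT Tconv) with its SE for the 58 tested members, in order of chromosome and position, with members near-identical to other gene records over 50% or more of the transcript in orange. Most values lie within 0.25 of 0, and the widest error bars belong to Zfp967 and Zfp968 of the near-identical set and to low members of chromosome 4.

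A list of 30 genes held partners through which KRAB proteins act and Zfp57, which is itself a KRAB gene. All but Zfp57 were expressed in the Treg of both groups and tested, and 0 of these 29 passed the adjusted threshold in edgeR. At an unadjusted p under 0.05, 2 were higher and 3 lower (17.2%), close to the 14.5% of all genes tested. DESeq2 called 1 of the 29, beside 4.35% of all genes given an adjusted p. This gene was Cbx3, which encodes HP1γ. Cbx3 was at 206.5, 204.5 and 210.8 CPM with WT Tconv and 174.5, 159.2 and 178.0 CPM with HP1a KO Tconv. The groups did not overlap, and the log2 fold change was -0.28 (SE 0.0663, adjusted p = 0.209 by edgeR and 0.0318 by DESeq2). DESeq2 did not call Cbx3 when replicate 1, 2 or 3 with WT Tconv was left out (adjusted p of 0.0786, 0.0678 and 0.108). The log2 fold change in these fits was -0.29, -0.29 and -0.27. DESeq2 called Cbx3 when replicate 1, 2 or 3 with HP1a KO Tconv was left out (adjusted p of 0.0267, 0.000354 and 0.0115).

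The other genes at an unadjusted p under 0.05 were Rbbp4 (-0.21) and Atrx (-0.20), which were lower, and Morc3 (0.24) and Daxx (0.15), which were higher. ATRX and DAXX form a chaperone for a histone H3 variant, RBBP4 is a subunit of chromatin complexes that include NuRD, and MORC3 is a chromatin ATPase. Trim28, the co-repressor itself, was at 172.1, 165.4 and 182.6 CPM against 169.8, 181.0 and 175.5 CPM, with overlap. Setdb1 was at 76.5, 73.7 and 69.8 CPM against 74.0, 80.7 and 84.9 CPM, also with overlap. Cbx1, which encodes HP1β, was at 75.2, 71.0 and 69.0 CPM against 70.6, 54.1 and 67.6 CPM. Cbx5, the gene deleted in the Tconv, was at 140.5, 115.0 and 150.9 CPM against 122.2, 107.2 and 131.0 CPM in these Treg, with an adjusted p of 0.534 by edgeR. Zfp57, a KRAB gene of imprinted regions that lies outside the block, was at 0.120 CPM or less in every library and was not tested.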

How the data were processed

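Reads were trimmed, mapped by STAR to GRCm39 and turned into estimated counts per gene by Salmon, all by the authors (per the labels and the methods of the study). The deposited values are estimated counts, held as whole numbers and not normalized. Estimated counts divide ambiguous reads among matching transcripts, so near-identical copies can exchange reads. Whether the counting used strand is not given in the sources used here.

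All 18321 genes passing filterByExpr were tested with edgeR 4.0.16 (R 4.3.3; TMM, glmQLFit with robust estimation, glmQLFTest, group as the sole term) after tests on simulated data. Alternatives were other normalizations and filters, DESeq2 1.42.0, limma 3.58.1 (voom), a replicate block and leaving out libraries. A GC content offset and DESeq2 leaving out libraries were chosen after the data had been seen. Log2 CPM used a pseudocount of 0.02 CPM for the spread over libraries. Positions, coding sequences and near-identical transcripts (BLAST, at least 98% identity over at least 100 bases) came from GENCODE M39 on GRCm39, which matched 28854 of the 29199 identifiers. Genes named were the 8 tested members of smallest unadjusted p-value in each direction, the 6 of highest level, the 3 highest per length, the 3 of largest spread (Zfp967, Zfp968 and Zfp978) and 5 co-repressor genes. Zfp970, Zfp966, the members outside the main edgeR test, the other co-repressor genes and members given as examples were named after their values were seen. The members and lists were chosen with earlier results of these data known.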

Additional observations from a re-analysis of the deposited data

How the results depend on the processing

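The count of members past the adjusted threshold was 0 in all edgeR and limma-voom fits and in DESeq2 on all libraries. In DESeq2 it was 1 (Zfp961) when replicate 2 with WT Tconv was left out, beside 2.23% of all genes given an adjusted p, and 2 (Zfp961 and Zfp991) when replicate 2 with HP1a KO Tconv was left out, beside 11.3%. The co-repressor count was 1 (Cbx3) in DESeq2 on all libraries, 2 without replicate 1 (beside 5.02% of all genes) or replicate 3 (2.53%) with HP1a KO Tconv and 4 without its replicate 2 (11.3%), and it was 0 in DESeq2 without any 1 of the libraries with WT Tconv (1.35% to 2.42%). Members higher at an unadjusted p under 0.05 numbered 1 with the replicate block, 4 with the GC content offset, 0 to 3 in edgeR leaving out each library and 1 to 4 in DESeq2 leaving out each library, and lower ones 0 to 2 in both tools. Of all genes, 5.08% to 7.51% were higher and 5.18% to 8.92% lower in edgeR leaving out each library, 3.64% to 5.35% higher and 4.08% to 7.02% lower in DESeq2 leaving out each library, and 5.03% higher and 6.32% lower with the replicate block. Members whose groups did not overlap numbered 7 to 13 higher and 1 to 5 lower when each library was left out, beside 15.5% to 18.6% higher and 14.8% to 18.3% lower among all genes tested in groups of 2 against 3. The medians and sums kept their sign and moved by less than the spread between replicates. For the median that spread (0.0623) was nearly as large as the value itself (0.0672). The median fell to 0.0054 in DESeq2 without replicate 2 with HP1a KO Tconv. Leaving out 1 library moved the median over a range of 0.01 to 0.09 and the difference of the sums from 20.9 to 57.6. With TMM or RLE scaling that difference was 25.5 or 23.7.

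Of 642 values of the 28 named genes under alternatives, 30 changed sign. All 30 belonged to Zfp984, Zfp945, Zfp942, Zfp954, Zfp967, Zfp968 and Trim28, and the cause was not tested. The log2 fold change of Zfp984 was 0.012 with total counts, 0.053 with the GC content offset, -0.079 to 0.039 leaving out each library, and 0.0070 and 0.024 in DESeq2 without replicate 1 with WT or HP1a KO Tconv. That of Zfp945 was -0.080 to 0.12 leaving out each library, and -0.085 and -0.0085 in DESeq2 without replicate 3 with WT Tconv or replicate 1 with HP1a KO Tconv. Zfp942 was at 0.032 with the GC content offset and -0.080 to 0.012 leaving out each library, and Zfp954 at -0.16 to 0.0040 leaving out each library. Zfp967 was at -4.16 by limma-voom, -2.32 with the replicate block, -9.64 to 1.45 leaving out each library, and -0.11 and -9.01 in DESeq2 without replicate 1 with WT Tconv or replicate 3 with HP1a KO Tconv. Zfp968 was at -0.32 both by limma-voom and with the replicate block, -0.50 to 0.81 leaving out each library, and -0.26 and -0.51 in DESeq2 without replicate 1 with WT or HP1a KO Tconv. Trim28 was at -0.056 with the GC content offset, -0.0057 to 0.056 leaving out each library, and -0.018 and -0.011 in DESeq2 without replicate 2 with WT or HP1a KO Tconv.

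Same-numbered libraries of the groups deviated together with correlations of -0.04, 0.18 and 0.12 over genes, and not every library correlated best with its own number, so the numbers were not taken as pairs. Depth limits the members under 100 counts, and shared sequence limits the near-identical ones.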
